A study of Mus musculus with 69 samples.

Results

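PRAD organoids kept with ARi to day 8 were compared with PRAD organoids kept with DMSO, a solvent, to day 8, over all genes of one count table. Each group holds 3 libraries, so the comparison rests on 6 of the 69 libraries of the series and on 18483 of 18799 gene names. These are mouse prostate organoids, epithelial cells grown as clusters in culture, profiled by bulk sequencing of polyA RNA. The labels give ARi only by its code, with no compound or dose, and do not state the genotype of the PRAD organoids, how many lines they came from, or whether replicates are separate cultures. For a check in other libraries, ARi_NOTCHi organoids were set against NOTCHi organoids and ARi_YAPi organoids against YAPi organoids, all of them PRAD organoids at day 8 with 3 libraries per group. The series' design text places the samples in a study of the passage from prostate adenocarcinoma to neuroendocrine prostate cancer.

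Androgen switches on genes of prostate luminal cells, the secretory layer of the gland. The glucocorticoid receptor, encoded by Nr3c1, acts through DNA elements closely related to those of the androgen response, so that genes such as Fkbp5 and Zbtb16 answer to either hormone. Basal cells lie under the luminal cells on a basement membrane, express Krt5 and Trp63, and can form squamous, skin-like cells. In neuroendocrine prostate cancer, epithelial cells take on a neuronal program.

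The epithelial label was checked against markers of epithelial and other cells. Levels are given throughout in CPM, the usual scaling of counts to library size, here with TMM factors, where ± is the SD over n = 3 libraries. Epcam, an epithelial adhesion gene, averaged 409 ± 7.46 CPM in ARi organoids and 570.1 ± 6.99 CPM in DMSO organoids. The prostate secretory genes Pbsn and Msmb were not analysed here. Among markers of other cells, the endothelial list summed to 0.449 to 0.673 CPM in ARi libraries and 0.267 to 0.538 CPM in DMSO libraries, with 3 of 8 markers measured. Of 11 immune markers 4 were measured, and they summed to 133 to 139.5 CPM in ARi libraries and 135 to 148 CPM in DMSO libraries. Most of that sum was Cd14, which epithelia can express, at 127 ± 3.14 CPM with ARi and 119.6 ± 6.48 CPM with DMSO (not called), and the leukocyte gene Ptprc was not analysed here. Of 6 neuron and glia markers 4 were measured, and they summed to 236 to 243 CPM in ARi libraries and 159 to 164 CPM in DMSO libraries. Only 1 of them, Mbp, reached 1 CPM in either group, and it rose. Library totals were 28057183 to 30211989 counts with ARi and 24167530 to 28276847 counts with DMSO.

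A gene was called at an adjusted p under 0.05 in edgeR's quasi-likelihood test, with p adjusted over all 18483 genes. By that rule 54.5% of genes differed between ARi and DMSO organoids, 27.1% higher and 27.4% lower with ARi. Changes of at least 2-fold were fewer, 6.51% of genes upward and 4.6% downward, and the median log2 fold change over all genes was 0. In 58.5% of genes the 3 libraries of one group lay wholly above the 3 of the other. A count of called members in a gene list is to be read against these shares. Beside log2 fold changes ± marks a standard error derived from the test, as the absolute log2 fold change divided by the square root of F. The words "not called" mean that the test was missed, not that the level was equal.

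Steroid receptor genes were higher with ARi. Esr1, which encodes estrogen receptor alpha, had 34.8, 32 and 38.4 CPM with ARi and 6.22, 5.26 and 6.2 CPM with DMSO (log2 fold change 2.57 ± 0.07, adjusted p = 4.49e-30), and its groups did not overlap. The mineralocorticoid receptor gene Nr3c2 rose by 1.17 ± 0.10 on the log2 scale, to 10.7 ± 0.335 CPM against 4.75 ± 0.427 CPM in DMSO organoids. Nr3c1 changed less, with 66.1, 65.7 and 66.6 CPM in ARi libraries and 55.3, 52.4 and 55 CPM in DMSO libraries (log2 fold change 0.29 ± 0.05, adjusted p = 5.77e-07), and its groups too did not overlap. Esr2 also rose but stayed under 1 CPM in each group, and the progesterone receptor gene Pgr, at 5 counts over the ARi libraries and 0 over the DMSO libraries, was not called.

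Genes known to respond to androgen moved in both directions, and most of the called ones fell. Of 30 measured androgen-responsive genes, 7 rose, 16 fell and 7 were not called, with a median log2 fold change of -0.26. Fkbp5, a cochaperone of steroid receptors and a standard readout of androgen and glucocorticoid action, had 24.4, 22.8 and 26.2 CPM in ARi libraries, against 129.7, 133 and 131 CPM in DMSO libraries (log2 fold change -2.42 ± 0.05, adjusted p = 8.29e-35). Every ARi library lay under every DMSO library by a wide gap. The transcriptional repressor gene Zbtb16 had 2 counts over the ARi libraries and 1305 over the DMSO libraries, which is a ratio of DMSO to ARi of 731 with a 95% counting interval of 202 to 6043 (adjusted p = 5.95e-30). Ndrg1, which is on this list and is also induced by low oxygen, is described below. The membrane protease gene Tmprss2 was 323 ± 3.27 CPM with ARi and 489 ± 6.55 CPM with DMSO, and the solute carrier gene Slc45a3 60.5 ± 1.83 and 94.6 ± 0.537 CPM. These are falls of 0.60 and 0.65 on the log2 scale.

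The exceptions among androgen targets were also outside the replicate spread. Sord, which encodes sorbitol dehydrogenase, had 67.6, 66 and 69.1 CPM with ARi and 34.9, 31.9 and 36.7 CPM with DMSO (log2 fold change 0.97 ± 0.04, adjusted p = 2.56e-23). Pmepa1, a membrane adaptor gene that limits TGF-beta signalling, rose to 58.8 ± 1.63 CPM, against 33.8 ± 1.78 CPM in DMSO organoids. The ubiquitin ligase gene Nedd4l (0.59) and the transporter gene Abcc4 (0.55) rose too. Camkk2, Herc3, Ptger4, Gnmt, Azgp1 and Bmpr1b were not called.

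**Figure D1:**
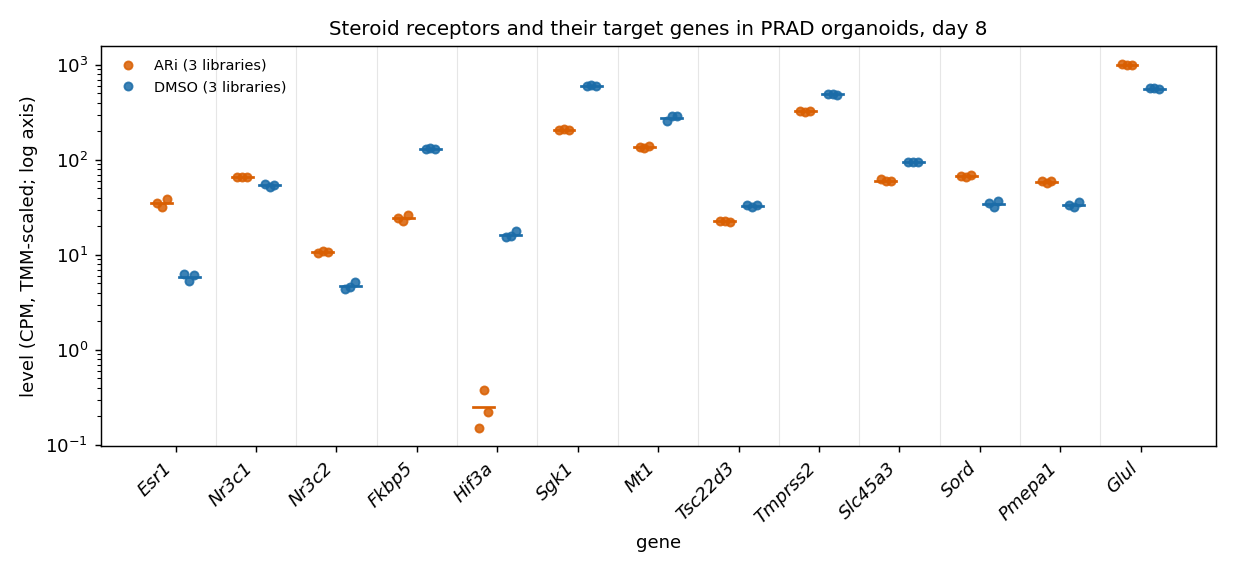
Levels of 13 steroid receptor and target genes in each of 3 ARi libraries (orange, left of each pair) and 3 DMSO libraries (blue), as TMM-scaled CPM on a log axis; horizontal bars are means over 3 libraries. Esr1, Sord, Pmepa1 and Glul lie higher with ARi, while Fkbp5, Hif3a and Sgk1 lie lower, and no gene's groups overlap.

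Most glucocorticoid receptor targets fell, and Fkbp5 and Zbtb16 are members of this list as well. Of 17 measured targets, 2 rose, 12 fell and 3 were not called (median log2 fold change -0.94). Sgk1, a kinase gene that controls sodium transport, had 206, 212 and 206 CPM in ARi libraries, against 596, 607 and 602 CPM in DMSO libraries (log2 fold change -1.53 ± 0.03, adjusted p = 6.92e-34). Hif3a, which encodes a relative of the hypoxia-inducible factors that can inhibit them, had 0.15, 0.381 and 0.224 CPM with ARi and 15.4, 15.7 and 18 CPM with DMSO (log2 fold change -5.98 ± 0.31, adjusted p = 2.69e-20). The lipocalin gene Lcn2 and the metallothionein genes Mt1 and Mt2 fell by 1.57, 1.02 and 0.94 on the log2 scale, and the leucine zipper gene Tsc22d3 by 0.54. Glul, which encodes glutamine synthetase, went the other way, at 1003 ± 11.9 CPM with ARi and 562 ± 4.35 CPM with DMSO. The clock gene Per1 (-0.11), Errfi1 (0.10) and Angptl4 (-0.31) were not called. In bulk RNA, fewer cells of a type and less RNA per cell cannot be told apart, here or in the lists that follow.

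Genes of the low-oxygen response fell widely with ARi. Hypoxia-inducible factors (HIFs) are made of an alpha subunit, Hif1a or Epas1, and the partner Arnt. Prolyl hydroxylases of the Egln family mark the alpha subunit for destruction by the Vhl protein when oxygen is present, and HIF turns on glycolysis, angiogenesis and several of its own regulators. The subunit genes did not fall. Hif1a had 688, 683 and 684 CPM in ARi libraries, against 553, 507 and 512 CPM in DMSO libraries (log2 fold change 0.39 ± 0.03, adjusted p = 6.00e-14), and Epas1 and Arnt rose by 0.33 and 0.24 on the log2 scale. Hif1an, the gene of the asparagine hydroxylase that blocks HIF, rose by 0.45. Of the destruction arm, Vhl was 42.4 ± 0.615 CPM with ARi and 70.2 ± 1.52 CPM with DMSO and Egln1, itself a HIF target, 85.2 ± 3.11 and 185 ± 1.62 CPM, while Egln2 (0.03) was not called.

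Of 27 HIF targets, 1 rose, 25 fell and 1 was not called, and 21 fell by at least 2-fold, with a median log2 fold change of -1.53. Summed over the list, the level was 1908 to 1923 CPM in ARi libraries and 6836 to 6939.5 CPM in DMSO libraries. Bnip3, which directs mitochondria to autophagy, had 26.1, 25.5 and 23.9 CPM with ARi and 343, 333 and 329 CPM with DMSO (log2 fold change -3.73 ± 0.04, adjusted p = 2.56e-43). Adm, which encodes the vasoactive peptide adrenomedullin, had 4.83, 3.87 and 4.53 CPM with ARi and 51.8, 53.7 and 50.7 CPM with DMSO (log2 fold change -3.56 ± 0.09, adjusted p = 5.92e-32). Vegfa, the main angiogenic growth factor gene, had 21, 22.1 and 23.3 CPM with ARi and 130.2, 145 and 142 CPM with DMSO (log2 fold change -2.65 ± 0.05, adjusted p = 1.52e-36). In each of these genes the groups lay several-fold apart with no overlap. Ndrg1, Ero1a and Egln3 had the lowest fold changes of the list, at -4.09, -3.84 and -3.82 on the log2 scale. The carbonic anhydrase gene Car9 fell by 1.88, but its relative Car12 rose by 0.47 ± 0.04, to 164 ± 3.06 CPM with ARi against 118 ± 6.49 CPM with DMSO. Rab20, at 25.9 ± 1.08 CPM with ARi and 24.9 ± 1.76 CPM with DMSO, was not called.

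HIF binds DNA at a short core, and ACGTG is the form of it searched for here. Matches on either strand are set in capitals below, and other forms of the core were not searched. The promoters shown are of the HIF targets with the lowest fold changes among those with an average log2 CPM of 3 or more. They are the 250 bases before the start site, 5′ to 3′ on the gene's strand, from RefSeq on build GRCm38.p6. Ndrg1 and Ppp1r3c, which fell further than Bnip3, are named only.
Ero1a (chr14:45318573-45318822, minus strand): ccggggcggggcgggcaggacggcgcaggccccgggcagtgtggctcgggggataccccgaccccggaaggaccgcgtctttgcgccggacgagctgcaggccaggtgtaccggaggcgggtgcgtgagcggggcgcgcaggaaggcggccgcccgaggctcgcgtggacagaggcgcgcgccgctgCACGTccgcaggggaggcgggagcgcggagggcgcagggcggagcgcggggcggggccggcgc
Egln3 (chr12:54203875-54204124, minus strand): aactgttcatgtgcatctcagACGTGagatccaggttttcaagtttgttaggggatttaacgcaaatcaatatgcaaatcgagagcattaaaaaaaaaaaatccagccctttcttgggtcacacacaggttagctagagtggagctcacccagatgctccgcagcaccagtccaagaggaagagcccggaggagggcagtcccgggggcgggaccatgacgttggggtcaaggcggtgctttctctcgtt
Bnip3 (chr7:138909507-138909756, minus strand): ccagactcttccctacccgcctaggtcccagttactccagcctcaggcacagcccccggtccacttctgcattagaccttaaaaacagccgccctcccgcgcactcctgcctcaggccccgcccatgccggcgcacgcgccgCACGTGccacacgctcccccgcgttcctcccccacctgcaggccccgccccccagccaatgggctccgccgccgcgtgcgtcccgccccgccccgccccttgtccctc
Adm (chr7:110627407-110627656, plus strand): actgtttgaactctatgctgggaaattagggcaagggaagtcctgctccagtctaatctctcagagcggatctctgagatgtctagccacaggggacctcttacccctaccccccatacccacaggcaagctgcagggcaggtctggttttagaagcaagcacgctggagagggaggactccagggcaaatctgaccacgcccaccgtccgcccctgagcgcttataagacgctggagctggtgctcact
The Ero1a window holds 1 ACGTG match, 63 bases before the start, and the Egln3 window holds 1, 229 bases before it. In Bnip3 the capitals are 2 overlapping matches on opposite strands, which begin 108 bases before the start. The Adm window holds none in these letters. Over windows that run from 250 bases before to 50 after the start, ACGTG was found on either strand in 19 of 34 windows of HIF target genes (55.9%), where 23 of 27 genes were matched. The share among all 32851 RefSeq promoter windows of that length was 19.6%. The list holds known HIF targets, so its share does not bear on the ARi difference. Counted by matched gene, the share was 28.2% among all genes tested. It was 30.3% among genes that fell by at least 2-fold with ARi and 20.5% among those that rose by at least 2-fold. A match describes letters and is not a measured binding site.

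Most genes of glycolysis fell. Of 22 genes of glycolysis and glucose uptake, 1 rose, 19 fell and 2 were not called, and 13 fell by at least 2-fold (median log2 fold change -1.07). The glucose transporter gene Slc2a1 was 180.5 ± 1.69 CPM with ARi and 366 ± 16.2 CPM with DMSO. Among the kinases, Hk2 fell by 0.77 and the phosphofructokinase gene Pfkp by 2.45, while its muscle-type relative Pfkm rose by 0.13 ± 0.06 (adjusted p = 0.0493), a call that was lost, leaving 0 that rose, on leaving out any 1 ARi library or DMSO replicate 2 or 3. Aldoa, Tpi1, Gapdh, Pgk1, Pgam1 and Eno1, which carry the steps from aldolase to enolase, fell by 1.34, 1.45, 1.28, 1.95, 1.40 and 0.97 in that order. Ldha, which encodes the lactate dehydrogenase subunit that makes lactate, had 1336, 1313 and 1314 CPM in ARi libraries, against 3759.7, 3769.7 and 3817 CPM in DMSO libraries (log2 fold change -1.52 ± 0.03, adjusted p = 7.89e-36). Slc16a3, the gene of the lactate exporter MCT4, had 13.2, 13 and 14 CPM with ARi and 159.8, 170.0 and 164 CPM with DMSO (log2 fold change -3.62 ± 0.06, adjusted p = 3.61e-39). The glycogen genes Gys1, Gbe1 and Pygl fell by 1.12, 0.59 and 2.48. Slc2a3 and Eno2, each under 1 CPM in both groups, were not called.

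**Figure D2:**
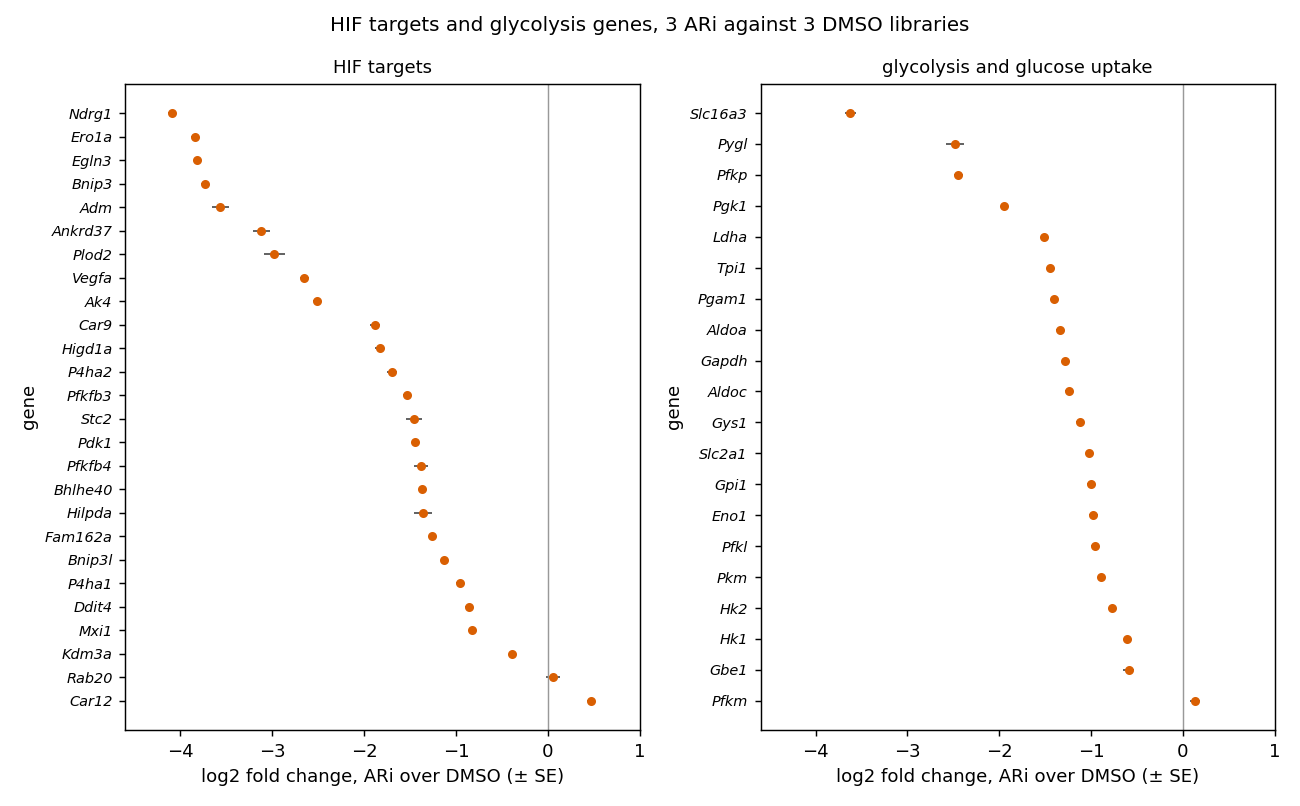
Log2 fold change, ARi over DMSO, with its standard error (horizontal bars, often smaller than the point) for HIF targets (left) and genes of glycolysis and glucose uptake (right) that reach 1 CPM in at least one group, from 3 libraries per group. Nearly all points lie left of 0; Car12 and Pfkm lie right of it and Rab20 at 0.06 was not called.

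Transcripts of the mitochondrial genome were higher with ARi, while nuclear genes for the same respiratory complexes were slightly lower. All 13 mitochondrial genes of the respiratory chain rose, with a median log2 fold change of 0.91. Their summed level was 22799.6 to 22898 CPM in ARi libraries, against 13244 to 14246 CPM in DMSO libraries. mt-Cytb, of complex III, had 2493, 2503 and 2484 CPM with ARi and 1163, 1069 and 1089.7 CPM with DMSO (log2 fold change 1.17 ± 0.04, adjusted p = 2.89e-28). mt-Nd5 and mt-Nd6 overlap on opposite strands. Whether the counting used strand is not given in the sources used here, so reads from the stretch they share cannot be assigned with certainty. Of 29 nuclear genes of the TCA cycle and respiratory chain, 2 rose, 23 fell and 4 were not called, and none changed by 2-fold (median -0.25). Cox7a2 and Ndufb8 had the lowest fold changes, at -0.60 and -0.59, and the dehydrogenase genes Sdha and Ogdh rose by 0.13 and 0.21.

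Most genes of lipid synthesis fell, few of them by 2-fold. All 24 cholesterol genes were called, and 20 fell and 4 rose (median log2 fold change -0.51). The mevalonate pathway kinase gene Pmvk had 39.2, 41.6 and 42.6 CPM with ARi and 92.8, 94.6 and 95.3 CPM with DMSO (log2 fold change -1.20 ± 0.05, adjusted p = 2.56e-23). Srebf2, the gene of the factor that drives this pathway, rose by 0.12, a call lost without DMSO replicate 1 (0.08), and Sc5d, of a late step of the pathway, rose by 0.19. Of 17 fatty acid synthesis genes, 3 rose, 11 fell and 3 were not called. The desaturase gene Scd1 fell by 0.76, while Fasn, the fatty acid synthase gene, rose to 558 ± 9.68 CPM, against 403 ± 23.2 CPM in DMSO organoids. Among 10 polyamine genes, 2 rose, 6 fell and 2 were not called, and the spermine oxidase gene Smox fell by 1.23.

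Most genes under Atf4, the transcription factor of amino acid shortage, fell. Of 24 measured, 2 rose, 20 fell and 2 were not called, and 10 fell by at least 2-fold (median -0.99). Trib3, a pseudokinase gene that feeds back on Atf4, had 2.77, 1.38 and 0.86 CPM with ARi and 11.6, 12.1 and 12.5 CPM with DMSO (log2 fold change -2.85 ± 0.19, adjusted p = 1.17e-16). Atf4 itself was 140.2 ± 3.38 CPM with ARi and 262 ± 11.1 CPM with DMSO, and Asns, which encodes asparagine synthetase, 43.2 ± 1.28 and 96.2 ± 3.79 CPM. Eif4ebp1, a brake on translation, fell by 2.00. The cystine transporter gene Slc7a11 rose by 0.86 and the sestrin gene Sesn2 by 0.46. Of 20 genes of protein folding in the endoplasmic reticulum, 3 rose, 15 fell and 2 were not called, with Herpud1 lowest in fold change at -1.02 and the chaperone gene Hspa5 at -0.43.

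Luminal and basal genes moved apart. Of 28 luminal genes, 4 rose, 18 fell and 6 were not called (median log2 fold change -0.52). Psca, a surface antigen gene of luminal progenitors, had 30.4, 29.5 and 29.4 CPM in ARi libraries, against 219.6, 235 and 244 CPM in DMSO libraries (log2 fold change -2.97 ± 0.05, adjusted p = 1.15e-36), with no overlap. The claudin genes Cldn3 and Cldn4, of tight junctions, fell by 1.22 and 1.06. The simple epithelial keratin genes moved less, at -0.59 for Krt7, -0.58 for Krt19, -0.31 for Krt18 and -0.22 for Krt8. Hoxb13, a homeobox gene of the posterior prostate, was 28.8 ± 1.41 CPM with ARi and 43.7 ± 4.16 CPM with DMSO. The pioneer factor genes Gata3, Gata2 and Foxa1 rose, to 415 ± 6.92, 5.13 ± 0.776 and 316 ± 2.61 CPM with ARi, against 218 ± 3.22, 2.75 ± 0.466 and 215 ± 3.88 CPM with DMSO.

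Of 24 basal genes, 16 rose, 6 fell and 2 were not called (median log2 fold change 0.34). Dsc3, a desmosomal cadherin gene, had 179.9, 175 and 185 CPM with ARi and 70.5, 62.1 and 65.6 CPM with DMSO (log2 fold change 1.44 ± 0.04, adjusted p = 7.71e-29). Dst, which anchors keratin to hemidesmosomes, had 453, 448 and 448 CPM with ARi and 189.9, 186 and 189.6 CPM with DMSO (log2 fold change 1.25 ± 0.03, adjusted p = 1.51e-30). Both genes had groups far apart relative to their replicate spread. Trp63, the master regulator gene of basal cells, rose to 421 ± 4.45 CPM, against 296 ± 5.39 CPM in DMSO organoids. Krt5 (0.35) and Krt15 (0.55) rose, Krt14 fell by 0.15, and Krt17 (0.07) was not called. Sfn, Pkp1 and Dlk2 fell by 0.52, 0.33 and 0.80.

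The squamous list split by gene rather than moving one way. Of 22 measured, 7 rose, 13 fell and 2 were not called. Krt1, a keratin gene of suprabasal skin, had 408, 402 and 407 CPM with ARi and 109, 107 and 108 CPM with DMSO (log2 fold change 1.91 ± 0.04, adjusted p = 7.39e-33). Lor, of the cornified envelope, had 48.2, 49.9 and 54.4 CPM with ARi and 15.6, 16.1 and 15.8 CPM with DMSO (log2 fold change 1.68 ± 0.10, adjusted p = 3.34e-19). Tgm3 and Dsg1a rose by 2.17 and 1.87 at levels under 3 CPM, and Krt10 rose by 0.47. Lower with ARi were the wound keratin genes Krt6a (-1.12) and Krt16 (-0.73), the mucosal keratin gene Krt13 (-0.59) and the small proline-rich gene Sprr1a (-0.94). Sprr2a3 fell by 1.93, although reads of its near-identical neighbours may be shared. Ivl (-0.02), which encodes involucrin, and Sprr3 (-0.15) were not called.

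**Figure D3:**
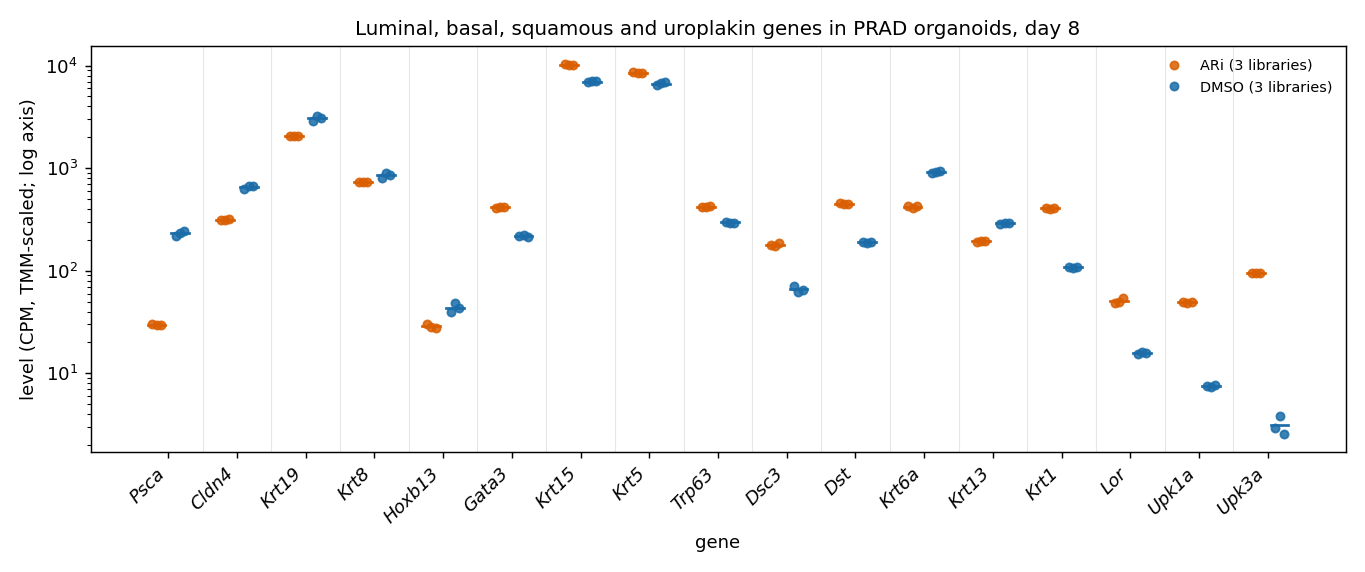
Levels of luminal genes (Psca to Gata3), basal genes (Krt15 to Dst), squamous genes (Krt6a to Lor) and uroplakin genes (Upk1a and Upk3a) in each of 3 ARi libraries (orange, left of each pair) and 3 DMSO libraries (blue), as TMM-scaled CPM on a log axis; bars are means. Psca lies near 29.8 CPM with ARi and 233 CPM with DMSO, and Krt1 near 405 and 108 CPM.

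Other lineage factors mostly rose. Of 28 measured, 17 rose, 5 fell and 6 were not called. Sox2 and Sox4, genes of progenitor states, were 65.5 ± 1.49 and 426 ± 5.58 CPM with ARi and 30.2 ± 2.14 and 207 ± 1.52 CPM with DMSO. Runx1 rose by 0.99 and Mycl, a Myc family gene, by 1.19, while Myc fell by 0.14, a call lost on leaving out ARi replicate 2 or 3 or DMSO replicate 3 (log2 fold change -0.12, -0.13 and -0.11 in that order). Klf4, a gene of differentiated epithelium, had 12.4, 12.1 and 14.7 CPM with ARi and 35.8, 44.3 and 41.2 CPM with DMSO (log2 fold change -1.63 ± 0.07, adjusted p = 2.38e-22), and Sox9 fell by 0.49. Klf5 (0.03), Ehf (-0.05) and Spdef (-0.14) were not called.

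Neuroendocrine genes were mostly at very low levels in both groups. Of 30 on the list, 8 rose, 2 fell and 20 were not called, but only 3 reached 1 CPM in either group. Snap25, a gene of vesicle fusion, had 146 counts over the ARi libraries and 2 over the DMSO libraries, a ratio of ARi to DMSO of 65.2 with a 95% counting interval of 17.7 to 543. Ncam1, a neural adhesion gene also found in epithelia, had 138, 141 and 137 CPM with ARi and 59.1, 55.7 and 61.3 CPM with DMSO (log2 fold change 1.24 ± 0.04, adjusted p = 2.13e-26). The granin genes Chga (3 counts over the ARi libraries and 4 over the DMSO libraries) and Chgb (4 counts over the ARi libraries and 3 over the DMSO libraries), and the vesicle gene Syp (8 counts over the ARi libraries and 17 over the DMSO libraries), were not called. In a fit of the 6 libraries alone, with fewer genes tested, the number that rose was 3 rather than 8. Tuft cells are rare chemosensory cells that share part of this program, and 5 of 7 tuft markers rose. Their factor gene Pou2f3 had 1.72, 1.83 and 1.31 CPM with ARi and 0.0769, 0.0438 and 0.0446 CPM with DMSO, and Dclk1 was 7.86 ± 0.663 CPM with ARi and 1.05 ± 0.3 CPM with DMSO. The other 2 tuft markers were not called. Summed over the 7, the level differed little, at 83.2 to 87.9 CPM in ARi libraries and 73.2 to 81.4 CPM in DMSO libraries.

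Matrix genes of the basement membrane and stroma rose more often than they fell. Of 17 collagen genes measured of 25, 11 rose, 1 fell and 5 were not called (median log2 fold change 0.73), and of 25 laminins and other matrix genes, 19 rose, 2 fell and 4 were not called (median 0.62). Col18a1, a basement membrane collagen gene, had 138, 138 and 135 CPM with ARi and 53.8, 55.6 and 56.8 CPM with DMSO (log2 fold change 1.31 ± 0.05, adjusted p = 6.32e-24). Col4a2 rose by 1.95, but Col4a1, which shares its promoter region and partners it in the collagen IV chain trio, fell by 0.76, at 24.4 ± 1.38 CPM with ARi and 41.3 ± 0.852 CPM with DMSO. The laminin-332 chain genes Lama3 and Lamb3 rose by 0.79 and 0.59, and Lama5 fell by 0.29. Tnc, a tenascin gene of remodelled matrix, and Fras1, of the epithelial basement membrane, rose by 1.26 and 1.84. Of the fibroblast and smooth muscle markers, 5 of 12 were measured and summed to 302 to 312 CPM with ARi and 84.8 to 88.4 CPM with DMSO. Nearly all of that sum was Dcn, at 304 ± 4.54 CPM with ARi and 84.1 ± 2.23 CPM with DMSO, while Pdgfra stood at 0.072 ± 0.0625 CPM with ARi and 0.0658 ± 0.0792 CPM with DMSO and Des had 0 counts in each group. The part of such cells in the matrix result was not tested.

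Genes of matrix proteases and their inhibitors moved in both directions. Mmp7, the epithelial matrilysin gene, had 196, 192 and 197 CPM with ARi and 1486, 1451 and 1459 CPM with DMSO (log2 fold change -2.91 ± 0.03, adjusted p = 1.05e-42), with no overlap. Timp2 and Timp3, inhibitors of metalloproteinases, rose by 0.85 and 1.28, and Plau, the urokinase gene, by 0.61. Of 14 genes measured, 8 rose, 4 fell and 2 were not called. Among 24 integrin and focal adhesion genes, 11 rose, 6 fell and 7 were not called. Tln1 and Flna, which tie integrins to actin, rose by 0.62 and 0.58, and the collagen receptor gene Itga2 fell by 0.50.

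YAP and TAZ are coactivators that act with TEAD factors when cells spread on stiff matrix, and their usual readouts did not move as one. Of 20 measured targets, 12 rose, 4 fell and 4 were not called. Ptpn14 and Amotl2, feedback inhibitors of YAP, were 259 ± 6.73 and 72.2 ± 4.44 CPM with ARi and 119 ± 4.59 and 36.3 ± 1.81 CPM with DMSO. Ccn2 fell by 1.28, the tissue factor gene F3 by 2.32, and Ccn1 (-0.04) and Ankrd1 (0.04) were not called.

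Notch receptors signal between neighbouring cells when Jag or Dll ligands bind them. Of 13 receptor, ligand and modifier genes measured, 9 rose, 3 fell and 1 was not called (median log2 fold change 0.79). The ligand gene Jag1 had 153, 148 and 144 CPM with ARi and 69.7, 73.5 and 74.5 CPM with DMSO (log2 fold change 1.03 ± 0.04, adjusted p = 4.31e-26), and Dll1 rose by 1.11. Of the receptors, Notch1, Notch2 and Notch3 rose by 1.27, 0.79 and 0.53. Of 15 targets, 8 rose, 2 fell and 5 were not called. The feedback inhibitor gene Nrarp had 144, 146 and 151 CPM with ARi and 73.9, 77.8 and 75.5 CPM with DMSO (log2 fold change 0.96 ± 0.05, adjusted p = 1.99e-19), and Hes1, a repressor gene, was 165 ± 2.69 CPM with ARi and 114 ± 2.1 CPM with DMSO. Ccnd1, also on this list, fell by 0.70.

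In the Wnt list 13 of 22 genes rose and 9 were not called (median log2 fold change 0.81). Lgr5, an R-spondin receptor gene that marks stem cells in several epithelia, had 18.1, 17.2 and 16.6 CPM with ARi and 1.08, 1.01 and 1.16 CPM with DMSO (log2 fold change 3.99 ± 0.17, adjusted p = 1.97e-23). Wnt5a, a noncanonical ligand gene, had 76.5, 73.2 and 77.9 CPM with ARi and 12.2, 12.3 and 9.36 CPM with DMSO (log2 fold change 2.74 ± 0.06, adjusted p = 2.13e-33). Axin2, Rnf43 and Znrf3, feedback inhibitors induced by beta-catenin, rose by 0.84, 0.85 and 0.86, with no overlap of groups in any. The ligand genes Wnt7b (-0.04) and Wnt10a (0) were not called.

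Of 20 genes of TGF-beta and BMP signalling, 8 rose, 6 fell and 6 were not called. The Id genes encode inhibitors of basic helix-loop-helix factors, and Id1, Id2 and Id3 fell by 2.18, 1.30 and 1.36, whereas Id4 had 24.9, 24.4 and 23.6 CPM with ARi and 7.42, 7.31 and 5.44 CPM with DMSO (log2 fold change 1.85 ± 0.07, adjusted p = 3.30e-26). Tgfb2 rose by 2.05 and Tgfb1 fell by 0.27. Of 24 genes of EGF receptor signalling and MAPK feedback, 2 rose, 15 fell and 7 were not called (median -0.73). The ligand gene Areg had 3.56, 3.15 and 3.44 CPM with ARi and 31.5, 29.5 and 30.4 CPM with DMSO (log2 fold change -3.17 ± 0.15, adjusted p = 1.35e-21), and Btc and Ereg fell by 1.82 and 1.23. Immediate-early and feedback genes Egr1, Ier3, Dusp6 and Etv5 fell by 1.25, 2.11, 1.27 and 1.17. The receptor gene Egfr itself rose to 193 ± 3.88 CPM, against 107 ± 3.43 CPM in DMSO organoids.

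**Figure D4:**
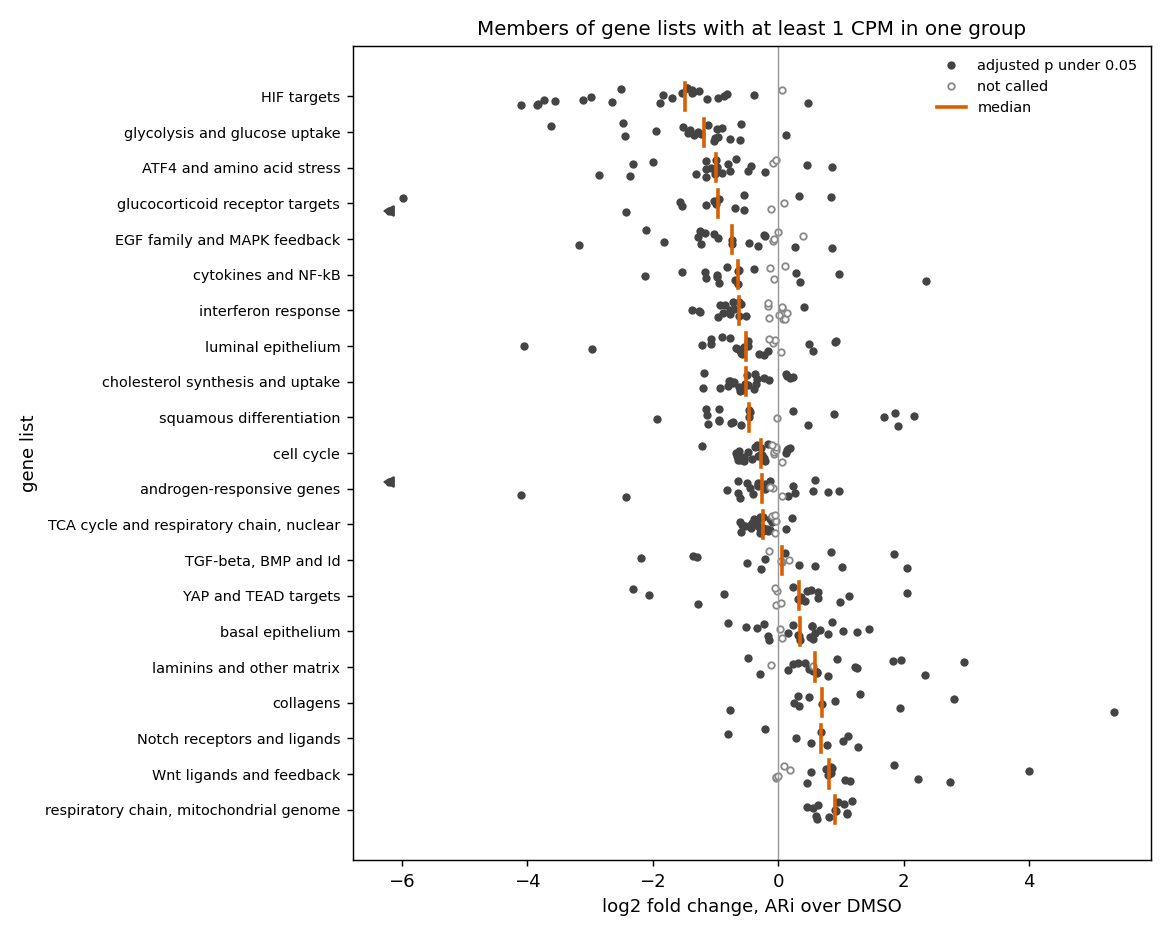
Log2 fold change, ARi over DMSO, of each member of 21 gene lists that reaches 1 CPM in at least one group; filled points were called at an adjusted p under 0.05, open points were not, and orange bars are list medians. Zbtb16 lies beyond the axis at -9.32 and is drawn as an arrowhead at the left edge. HIF targets and glycolysis lie to the left, and the mitochondrial genome, Wnt, Notch and matrix lists to the right.

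Proliferation genes changed little in size. Of 30 cell cycle genes, 4 rose, 20 fell and 6 were not called, and 1 fell by at least 2-fold (median -0.28). That gene was Rrm2, of ribonucleotide reductase, at 108 ± 3.17 CPM with ARi and 249.9 ± 4.6 CPM with DMSO. Mki67, the common proliferation marker, had 277, 273 and 269 CPM with ARi and 274, 252 and 260.5 CPM with DMSO and was not called (adjusted p = 0.154). Mitotic genes such as Cdk1 and Birc5 fell by 0.65 and 0.68, while the helicase genes Mcm2, Mcm4 and Mcm6 rose by 0.14, 0.16 and 0.18. The CDK inhibitor gene Cdkn1a had 36.2, 34.3 and 33 CPM with ARi and 117, 118 and 119 CPM with DMSO (log2 fold change -1.77 ± 0.04, adjusted p = 8.84e-33). The p53 targets, Cdkn1a among them, split, as 7 of 18 rose and 9 fell: Eda2r and Bbc3 rose by 1.22 and 0.92, and Pmaip1 was 16.2 ± 1.42 CPM with ARi and 46.1 ± 1.86 CPM with DMSO.

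Many interferon-stimulated and inflammatory genes fell with ARi. Of 25 interferon genes, 1 rose, 15 fell and 9 were not called (median -0.63), with the oligoadenylate synthetase genes Oas3, Oas2 and Oas1a falling by 1.37, 1.26 and 1.24. Ifit1 (0.08) was not called. Of 17 antigen presentation genes, 2 rose, 7 fell and 8 were not called, with B2m, the class I light chain gene, at 174 ± 2.87 CPM with ARi and 311 ± 15.7 CPM with DMSO. Tapbp, which loads peptide on class I molecules, rose by 0.44. Of 20 cytokine and NF-kB genes, 4 rose, 13 fell and 3 were not called. Il33, an alarmin gene, had 278, 271 and 280.0 CPM with ARi and 566, 529 and 533 CPM with DMSO (log2 fold change -0.97 ± 0.05, adjusted p = 3.50e-22). The chemokine gene Cxcl15 went the other way, with 265, 263 and 270.5 CPM with ARi and 54.9, 50.5 and 49.8 CPM with DMSO (log2 fold change 2.36 ± 0.04, adjusted p = 3.14e-35).

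Outside the lists, some of the genes with the widest gaps and a mean of at least 10 CPM in one group were picked after their values were seen and are given as a description. Ppp2r2b, a regulatory subunit gene of a phosphatase, had 17.3, 22 and 18 CPM with ARi and 0.0384, 0.0876 and 0.223 CPM with DMSO. Cyp1b1, an estrogen-metabolising cytochrome gene, was 105 ± 1.84 CPM with ARi and 11.4 ± 0.48 CPM with DMSO, and Igfbp5, which binds insulin-like growth factors, 724 ± 19.3 and 99.6 ± 0.187 CPM. On the lower side, Cdcp3 had 0 counts over the ARi libraries and 723 over the DMSO libraries, at least 270.0-fold lower with ARi against a floor of 3 counts over the ARi group. B4galnt2, a glycosyltransferase gene, was 0.208 ± 0.0825 CPM with ARi and 27.6 ± 0.781 CPM with DMSO, and Arg1, the arginase gene, 6.23 ± 0.242 and 156 ± 5.17 CPM. Ndufa4l2, known as a HIF target in human cells, had 2.51, 1.73 and 2.84 CPM with ARi and 107, 122 and 119.7 CPM with DMSO. Cav1, the caveola coat gene, was 9.95 ± 0.559 CPM with ARi and 118 ± 1.15 CPM with DMSO. By change in level, Anxa1, which encodes the anti-inflammatory annexin A1, fell to 1418 ± 5.31 CPM, against 4851 ± 116 CPM in DMSO organoids. Tgm2, a transglutaminase gene, rose to 1267 ± 12.5 CPM, against 255 ± 4.15 CPM in DMSO organoids, and the oxygenase genes Cyp2f2 and Fmo2 rose by 1.59 and 2.30 on the log2 scale.

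The ARi difference was then measured where a second agent was present in both groups. These comparisons, ARi_NOTCHi against NOTCHi and ARi_YAPi against YAPi, share no library with the first. NOTCHi replicate 2 stood apart from the other NOTCHi libraries, with a chi-square per degree of freedom of 24.7 and 23.3 against replicates 1 and 3, which differed from each other by 2.57. Without it 5437 genes rose and 4788 fell with ARi in the presence of NOTCHi, against 5763 and 5004 with it. YAPi replicate 1 was sequenced to 77790816 counts, the deepest of the table. Of the 1203 genes that rose by at least 2-fold with ARi alone, 765 (63.6%) also rose with ARi in the presence of NOTCHi and 94 fell, where 31.2% of all genes rose. With YAPi present 924 (76.8%) rose and 22 fell, where 29.7% of all genes rose. Of the 850 genes that fell by at least 2-fold, 586 (68.9%) fell and 43 rose with NOTCHi present, and 597 (70.2%) fell and 53 rose with YAPi present, where 27.1% and 21% of all genes fell.

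HIF targets and Fkbp5 also fell with ARi in each arm. Of 27 HIF targets, 23 fell with ARi in the presence of NOTCHi and 25 in the presence of YAPi. Egln3 had a log2 fold change of -4.49 with NOTCHi present and -3.25 with YAPi present, and Fkbp5 of -3.16 and -2.87. All 13 mitochondrial genes rose in each arm. Of 17 glucocorticoid receptor targets 14 fell in each arm. Of 30 androgen-responsive genes, 4 rose and 19 fell with NOTCHi present, but 11 rose and 10 fell with YAPi present, with a median log2 fold change of -0.03 there.

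The other lists are described by counts, with no test of the difference between arms. Most luminal genes fell in each arm, 25 of 28 with NOTCHi present and 20 with YAPi present. Of 30 neuroendocrine genes 20 rose and 2 fell with NOTCHi present, and 26 rose and none fell with YAPi present, where 8 rose and 2 fell with ARi alone. Of these genes 12 reached 1 CPM in ARi_NOTCHi or NOTCHi organoids and 23 in ARi_YAPi or YAPi organoids. With NOTCHi present the balance differed from that with ARi alone in the Notch targets, of which 4 rose and 7 fell, in the matrix proteases and inhibitors (5 and 7) and in the p53 targets (8 and 4). It also differed in the TGF-beta and BMP genes (7 and 8), the HIF subunit and regulator genes (3 and 5) and the tuft markers (2 and 2). Of the Wnt genes 12 rose and 4 fell with NOTCHi present, and of the YAP and TEAD targets 9 rose and 8 fell. The basal list had 12 that rose and 7 that fell with NOTCHi present, and the squamous list 2 and 18.

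With YAPi present the balance of several lists differed from that with ARi alone. Of 24 basal genes 4 rose and 19 fell, and of 20 YAP and TEAD targets 3 rose and 12 fell. Of 22 squamous genes 12 rose and 8 fell, of 30 cell cycle genes 13 rose and 5 fell, and of 29 nuclear genes of the TCA cycle and respiratory chain 12 rose and 5 fell. Lists that were near even with YAPi present included the laminins and other matrix genes (11 rose and 11 fell), the lineage factors (13 and 14), the interferon genes (9 and 8), fatty acid synthesis (7 and 6) and the cytokine and NF-kB genes (6 and 7). Near even as well were the matrix proteases and inhibitors (5 and 4), CDK inhibitors and D cyclins (5 and 6), p53 targets (6 and 6) and TGF-beta and BMP genes (9 and 7). Among the integrin and focal adhesion genes 8 rose and 11 fell. Of the Wnt genes 10 rose and 6 fell, and of the collagen genes 8 rose and 6 fell. Scaling by RLE or testing with DESeq2 left the side with more genes as it was for the basal, squamous, neuroendocrine, Notch target, cell cycle, TCA and YAP target lists, although for the cell cycle list the counts came to 12 and 9 with DESeq2.

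The difference between the ARi effects was tested directly as an interaction. It was called in 7262 genes (39.3%) for NOTCHi and in 6764 genes (36.6%) for YAPi. Without NOTCHi replicate 2 the first count was 6820. For NOTCHi 47.6% of these calls were positive, against 35.7% when the libraries were scaled by RLE, so no overall direction is drawn. Psca fell further with ARi when NOTCHi was present, at -5.31, than without it, at -2.97 (interaction -2.34 ± 0.08, adjusted p = 1.40e-26). Krt1 fell by 0.71 with ARi when NOTCHi was present, with 238 ± 9.76 CPM in ARi_NOTCHi organoids and 390.0 ± 7.14 CPM in NOTCHi organoids, although it rose with ARi alone (interaction -2.62 ± 0.06, adjusted p = 3.05e-32).

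**Figure D5:**
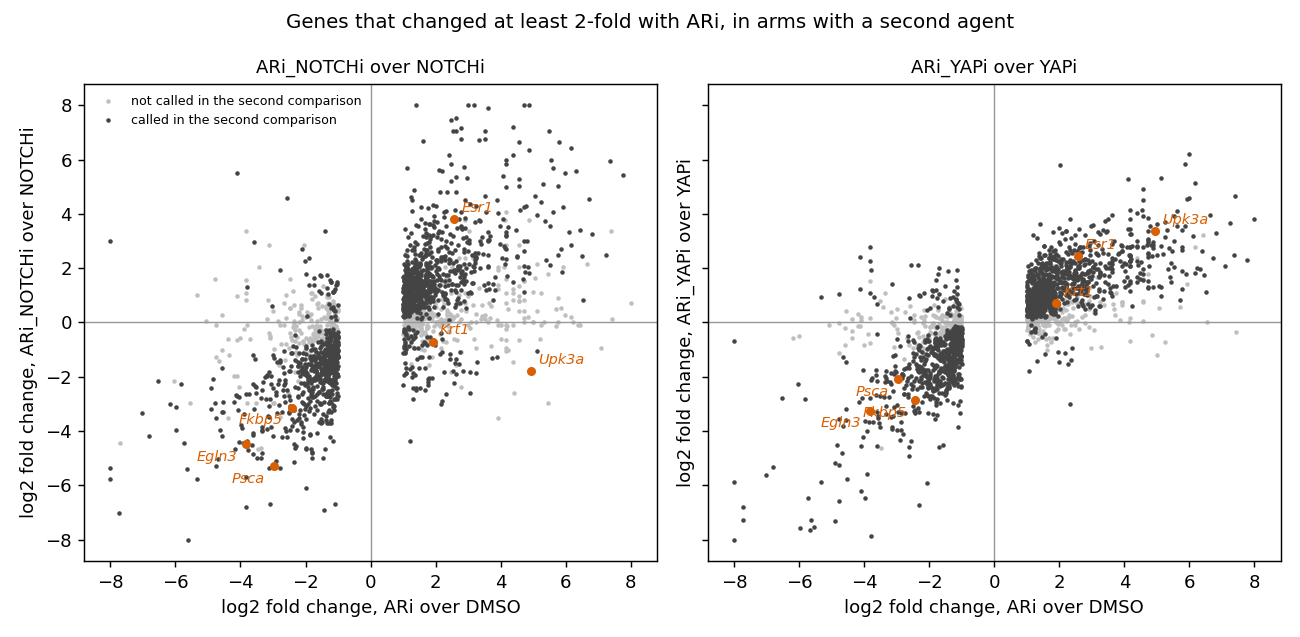
Log2 fold changes of the genes that changed at least 2-fold between ARi and DMSO (x axis) against their log2 fold change for ARi_NOTCHi over NOTCHi (left) and ARi_YAPi over YAPi (right), with 3 libraries per group; dark points were called in the second comparison, values beyond 8 in either direction are drawn at 8, and named genes are orange. Most points keep their side of 0, and Upk3a and Krt1 lie below 0 on the left panel.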

How the data were processed

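The authors deposited estimated counts for each gene in a table of 36 libraries in 12 groups, of which the ARi and DMSO groups at day 8 are described here. Per the submitters' processing notes the build is mm10; which aligner and counter were used, and whether counting used strand, is not given in the sources used here. The table has 18828 lines; 11 without a gene name (at most 0.00924% of a library) were left out and 16 shared names were summed. Of the deposited values 40.8% are not whole within 0.01, and they were rounded.

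All 36 libraries were fitted together by group with edgeR 4.0.16 in R 4.3.3 (TMM scaling, filterByExpr with a count minimum of 10, quasi-likelihood F-test, 2-sided, Benjamini-Hochberg adjustment over 18483 genes), which pools the estimate of spread. The common biological coefficient of variation was 3.85%, so small fold changes pass. The spread behind every p-value is that between libraries, and it may be technical. Where DMSO or ARi counts were 1 to 3 or 0, pooled counts with intervals or a floor of 3 counts were used, and these cover counting error only. Sequences are RefSeq promoters on GRCm38.p6, matched by symbol. Tables were summarised with pandas 2.3.3 and drawn with matplotlib 3.10.9.

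Simulated data for ARi against DMSO (18111 genes) had 50 genes changed at each of 1.2-, 1.5-, 2- and 4-fold. The fit recovered 32%, 74%, 88% and 100% of them in that order, and called 0.0602% of unchanged genes. In the real data 54.5% of genes were called. The simulated shares hold for a setting with few changed genes and are not error rates of the real calls.

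The 40 gene lists were written from general knowledge, and the lists, members and tests were chosen with earlier results of these data known. Genes named are 6 key genes, the 4 called members of each list with the widest change, the 15 called genes with the highest and the 15 with the lowest fold change (log2 CPM of 3 or more on average, groups that do not overlap, no predicted gene names), the 10 gains and 10 losses with the widest change in CPM, and 4 per interaction. List members outside this rule are named beside their list, and those added after the values were seen are marked as such. Some genes that the rule names are not reported here. The alternatives were RLE scaling, DESeq2 1.42.0, no filter on low counts, at least 1 CPM in 3 libraries, only the groups compared, a replicate block, and leaving out each library.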

Additional observations from a re-analysis of the deposited data

Results flagged for a closer look

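Upk3a, which encodes a uroplakin of the urothelial surface, had an ARi effect that differed with and without NOTCHi. It had 95.8, 94.1 and 94.8 CPM in ARi libraries and 2.96, 3.81 and 2.59 CPM in DMSO libraries, but 0.0831, 0.568 and 0 CPM in ARi_NOTCHi libraries and 0.954, 0.463 and 0.784 CPM in NOTCHi libraries. The interaction was -6.71 ± 0.50 on the log2 scale (edgeR quasi-likelihood test, adjusted p = 9.50e-15). The NOTCHi and ARi_NOTCHi levels lie under 1 CPM and overlap, so the direction of the ARi effect with NOTCHi present rests on few reads.

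Otop1, a proton channel gene, had an ARi effect of opposite sign with and without YAPi. Its level was 0.3, 0.311 and 0.224 CPM in ARi libraries and 3.61, 3.68 and 4.64 CPM in DMSO libraries, and 13.1, 13.9 and 14.8 CPM in ARi_YAPi libraries and 3.59, 3.4 and 4.02 CPM in YAPi libraries. The interaction was 5.74 ± 0.20 (adjusted p = 1.49e-25).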

How the results depend on the processing

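Counts of genes called in the comparison of ARi with DMSO, in the ARi comparisons with NOTCHi or YAPi present and in the interactions stayed within 1.5 times under all alternatives run (132 of 132 pairs of count and alternative). Leaving out 1 library at a time, 4684 to 4758 genes rose with ARi and 4694 to 4793 fell, 1111 to 1161 and 830 to 861 of them by at least 2-fold. The NOTCHi interaction was then called in 6678 to 7032 genes and the YAPi interaction in 6340 to 6637. Over the 760 genes that are on a list or were named by the rule, of 9019 pairs of a gene and an alternative, 120 lost a call and 77 gained one. Among pairs where the gene was called in either fit, 0 changed sign. Sign changes of genes called in neither fit were not counted. Of 960 list counts 28 moved by over 1.5 times, all of them small counts, such as the neuroendocrine genes that rose (8, and 3 in a fit of the 6 libraries alone).

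The labels number replicates 1 to 3 in each group. Deviations of same-numbered ARi and DMSO libraries from their group means correlated at 0.0273, 0.0288 and 0.00788 over 15245 genes, under 0.1 in every pair, so the numbers were not taken to pair the libraries, and not every library correlated best with its own number. With the replicate number as a block, 9987 genes were called, against 10076 without it.

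With 3 libraries per group, 32% of genes changed 1.2-fold were recovered in simulated data with few changed genes, so an uncalled gene may differ by a small amount. Fold changes of genes with few counts depend on the prior count, and values under 1 CPM rest on few reads.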

Other observations

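The following gene families were picked after their values were seen and are given as a description. Other uroplakin genes were also higher with ARi: Upk1a was 49.1 ± 0.788 CPM with ARi and 7.52 ± 0.2 CPM with DMSO, Upk1b 47.6 ± 1.42 and 28.6 ± 0.504 CPM, Upk2 3.58 ± 0.673 and 1.67 ± 0.348 CPM, and the uroplakin-like gene Upk3bl 19.8 ± 0.156 and 9.11 ± 0.586 CPM. With NOTCHi in both groups Upk1a was 3.28 ± 0.246 CPM in ARi_NOTCHi organoids and 9.38 ± 0.779 CPM in NOTCHi organoids, Upk1b 14.2 ± 2.4 and 113 ± 2.56 CPM and Upk2 1.06 ± 0.585 and 3.92 ± 0.713 CPM, so these were lower with ARi, while Upk3bl, at 56.3 ± 4.02 and 50.3 ± 0.634 CPM, was not called. With YAPi in both groups, Upk1a was 223 ± 5.59 CPM in ARi_YAPi organoids and 84.9 ± 3.91 CPM in YAPi organoids, Upk1b 131 ± 5.28 and 103 ± 1.22 CPM, Upk2 25.2 ± 1.51 and 13.2 ± 0.333 CPM, and Upk3bl, which was lower with ARi here, 4.62 ± 0.548 and 5.81 ± 0.746 CPM.

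Gasdermin C genes, which encode pore-forming proteins, were higher with ARi, with Gsdmc2 at 807, 798 and 792 CPM in ARi libraries and 103, 104 and 105 CPM in DMSO libraries, Gsdmc3 at 183 ± 3.61 and 33.3 ± 2.21 CPM and Gsdmc4 at 132 ± 4.13 and 22.9 ± 1.3 CPM. Most Sprr2 genes, of the cornified envelope, were lower, with Sprr2a2 at 1456, 1467 and 1476 CPM in ARi libraries and 6310.0, 6395 and 6599 CPM in DMSO libraries, and Sprr2d at 1.04 ± 0.336 and 14.2 ± 1.24 CPM. Sprr2i and Sprr2k were not called. Members of the Gsdmc and of the Sprr2 family are near-identical, so how reads were shared among them is uncertain.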
